A study of Mus musculus with 7 samples.

Results

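GIMAP genes (GTPases of immunity-associated proteins) were examined as a family in natural killer (NK) cells sorted from mouse spleen. The 8 genes Gimap1, Gimap3, Gimap4, Gimap5, Gimap6, Gimap7, Gimap8 and Gimap9 were taken by their symbols out of the 53379 genes of the count table. All 8 were found, and all 8 passed the filter on low counts that left 12161 genes to test. The labels give C57BL/6 mice and the surface phenotype C45+CD3-Nk1.1+NKp46+CD49b+, spelled here as deposited. There were 4 libraries of the genotype Hhex KO, deficient in the homeobox transcription factor Hhex, and 3 libraries of the genotype Cre control, each described as a biological replicate and taken ex vivo, with no treatment listed. No source used here gives the promoter that drives the Cre recombinase or the age of the mice. The comparison asks how RNA levels in NK cells differ when Hhex is deficient.

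GIMAP proteins are GTP-binding proteins made mainly by lymphocytes, several of them anchored in membranes inside the cell such as those of lysosomes, the endoplasmic reticulum or the Golgi apparatus. Rodents that lack single members can lose T cells, B cells or NK cells. Some members have been linked to the BCL-2 family, whose proteins decide between survival and apoptosis, and BIM, a pro-apoptotic member encoded by Bcl2l11, is named in the series title.

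The 8 genes lie together on mouse chromosome 6, at chr6:48647234-48770851 (GRCm38, GENCODE M21), over 124 kb. In chromosome order they are Gimap8, Gimap9, Gimap4, Gimap6, Gimap7, Gimap1, Gimap5 and Gimap3, with 6 on the plus strand and 2, Gimap6 and Gimap3, on the minus strand. Gimap3 and Gimap5 have coding sequences with 3 identical runs of at least 75 bases, the read length of this series. The longest run, of 140 bases, is shown because a read that lies inside it matches both genes equally. Each line gives 180 coding bases in the sense of the gene, with the identical run in capitals and 20 bases on either side in lower case. The windows are chr6:48765661-48765840 on the minus strand for Gimap3 and chr6:48752664-48752843 on the plus strand for Gimap5.
Gimap3: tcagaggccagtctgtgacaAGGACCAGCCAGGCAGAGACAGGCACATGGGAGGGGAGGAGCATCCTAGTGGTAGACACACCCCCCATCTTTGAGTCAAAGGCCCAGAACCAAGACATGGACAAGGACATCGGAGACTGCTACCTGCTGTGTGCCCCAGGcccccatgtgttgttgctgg
Gimap5: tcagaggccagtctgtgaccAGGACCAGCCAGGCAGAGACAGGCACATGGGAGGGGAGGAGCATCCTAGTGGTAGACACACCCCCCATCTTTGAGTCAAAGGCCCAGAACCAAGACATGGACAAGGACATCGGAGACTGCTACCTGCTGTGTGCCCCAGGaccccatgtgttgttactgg
Of the different 75-base words in the transcripts of each gene, 3.32% of those of Gimap3 and 1.97% of those of Gimap5 occur in the other gene. No source used here says how reads that match both genes were counted.

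Annotated overlaps touch 3 members. Gm28053, a gene model on the same strand that spans Gimap7, Gimap1 and Gimap5, shares 3.48% of the exon bases of Gimap7, 6.44% of those of Gimap1 and 3.69% of those of Gimap5. Gimap1os lies antisense to Gimap1 and covers 36% of its exon bases. The library kit keeps the strand, per the labels, but the strand setting of the counting is not given, so the values of Gimap1 and Gimap1os are uncertain where they overlap. Gimap8, Gimap9, Gimap4 and Gimap6 overlap no exon of another annotated gene and share 0 of their 75-base words.

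Promoter windows from 250 bases before to 50 bases after the annotated start site (RefSeq, GRCm38.p6) were found for all 8 genes. Those of Gimap7 and Gimap9 are printed because these members had the fold changes furthest from 0 in the upward and the downward direction. Capitals mark the ETS core GGAAGT and the RUNX core TGTGGT on either strand (reverse complements ACTTCC and ACCACA), binding motifs of factor families that act in NK cells. Both windows are on the plus strand, at chr6:48718371-48718670 for Gimap7 and chr6:48675885-48676184 for Gimap9.
Gimap7: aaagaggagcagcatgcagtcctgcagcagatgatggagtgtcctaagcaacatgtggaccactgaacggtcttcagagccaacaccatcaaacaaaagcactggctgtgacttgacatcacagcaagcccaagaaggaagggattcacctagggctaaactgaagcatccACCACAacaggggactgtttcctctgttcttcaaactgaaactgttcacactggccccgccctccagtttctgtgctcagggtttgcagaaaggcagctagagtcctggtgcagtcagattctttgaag
Gimap9: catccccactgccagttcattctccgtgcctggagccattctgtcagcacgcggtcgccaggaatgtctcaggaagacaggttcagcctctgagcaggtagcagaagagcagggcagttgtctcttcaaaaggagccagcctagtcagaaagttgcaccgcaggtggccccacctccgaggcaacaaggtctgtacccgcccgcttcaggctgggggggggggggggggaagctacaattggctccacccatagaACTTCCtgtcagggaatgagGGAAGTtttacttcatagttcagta
The Gimap7 window held 1 RUNX core and 0 ETS cores, and the Gimap9 window 2 ETS cores and 0 RUNX cores. The 8 genes had 9 windows, as Gimap8 had more than 1, and those of Gimap8 held none of the motifs searched. Members are counted here as genes, whereas the background counts single windows. GGAAGT was found in 4 of the 8 genes (Gimap1, Gimap5, Gimap6 and Gimap9), against 23.8% of 32851 promoter windows of the same length. TGTGGT was found in 3 genes (Gimap1, Gimap4 and Gimap7), against 16.8%. The homeobox core TAAT, searched with its reverse complement ATTA, was found in 2 genes (Gimap1 and Gimap6), against 58%. The longer homeobox motif ATTAAA, with its reverse complement TTTAAT, was found in 0 genes, against 13.9%. These are matches of letters and are not shown to be binding sites.

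Libraries held 10589915 to 18456404 counts, and levels are given as CPM (counts scaled to a common TMM-adjusted library size). Hhex itself was at 93.5 to 96.1 CPM in the controls, against 54.2 to 64.8 CPM in the Hhex KO libraries. Its log2 fold change was -0.70 ± 0.10 (adjusted p = 0.00768 with edgeR). Without Cre control replicate 1 the fold change was -0.70 but the call was lost (adjusted p = 0.0516 with edgeR). Without Hhex KO replicates 1 and 2 it was -0.68, and the call was lost as well (adjusted p = 0.0795 with edgeR). Transcript thus remained in the libraries labelled Hhex KO, and no source used here gives the exons that the deletion removes. The 10 NK markers summed to 15362 to 20200 CPM in the controls, against 12208 to 16336 CPM in the Hhex KO libraries. The lowest library was Hhex KO replicate 1. Gzma, a granule gene, made the largest part, at 6449 to 9689 CPM in the controls, against 4760 to 7156 CPM in the Hhex KO libraries. Of the 10 NK markers 0 were called, beside 4.56% called over all tested genes, and their median log2 fold change was -0.1. Other cell types were scarce but uneven. The 13 T cell genes summed to 1069 to 1323 CPM in the controls, against 1280 to 1526 CPM in the Hhex KO libraries, mostly from Lck, which NK cells also express, while Cd8a and Cd8b1 were at 0 in some libraries and Cd3e was at 8.75 to 13.6 CPM in the controls, against 10.6 to 25.7 CPM in the Hhex KO libraries. Of the T cell genes 10 were tested and 1 was called higher (Trbc2), beside 2.68% called higher over all tested genes. Their median log2 fold change was 0.63. At an unadjusted p below 0.05 with edgeR, 6 were higher. No share over all tested genes was taken at that threshold, here or below. Cd3d did not overlap, at 16.5 to 30.3 CPM in the controls, against 30.6 to 57.2 CPM in the Hhex KO libraries (log2 fold change 0.97 ± 0.27, adjusted p = 0.089 with edgeR). The 9 B cell genes summed to 215 to 261 CPM in the controls, against 246 to 407 CPM in the Hhex KO libraries, mostly from Ighm, with Ms4a1 at 9.91 CPM in Hhex KO replicate 1 and at most 1.09 CPM in the other libraries. Of the 4 B cell genes tested 1 was called higher, Cd79b, beside 2.68% called higher over all tested genes. Cd79b was at 2.02 to 2.77 CPM in the controls, against 4.61 to 14.5 CPM in the Hhex KO libraries, higher in all 4. Its log2 fold change was 1.90 ± 0.39 (adjusted p = 0.0292 with edgeR), and the median over the 4 tested B cell genes was 1.32. The 10 myeloid genes summed to 264 to 363 CPM in the controls, against 165 to 660 CPM in the Hhex KO libraries, with the highest value in Hhex KO replicate 2. Itgam made the largest part except in that library, at 200 to 219 CPM in the controls, against 129 to 186 CPM in the Hhex KO libraries. Lyz2 varied more, at 25.3 to 86.1 CPM in the controls, against 5.05 to 200 CPM in the Hhex KO libraries. The 6 erythroid genes summed to 4.32 to 25.1 CPM in the controls, against 1.95 to 47.3 CPM in the Hhex KO libraries. T and B cells also make GIMAP transcripts, and the part of these cells in the results was not tested. In bulk RNA, fewer cells of a type cannot be told apart from less RNA per cell. Hhex KO replicate 4 carries the submitters' sample number 95, whereas the other libraries carry numbers from 20 to 28. What these numbers stand for is not stated.

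The family was abundant in NK cells of both genotypes. The 8 genes summed to 3839, 3734 and 3713 CPM in the controls (replicates 1 to 3) and to 3934, 3984, 3979 and 4552 CPM in the Hhex KO libraries (replicates 1 to 4). On this TMM-adjusted scale all Hhex KO libraries lay above the controls, 3 of them by little and replicate 4 by more. The means were 3762 ± 67.3 CPM (SD, n = 3) and 4112 ± 294 CPM (SD, n = 4), a ratio of 1.09, and no test was made on the sum. Without Hhex KO replicate 4 the ratio was 1.05. The family took 0.37% to 0.381% of all counts in Cre control and 0.378% to 0.485% in Hhex KO, so without TMM scaling the groups overlapped. By mean CPM in Cre control, Gimap4 ranked 99, Gimap6 112 and Gimap7, the lowest member, 2080 among 12161 tested genes.

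Levels were compared between genes as CPM per kb of merged exons. In Cre control, Gimap4 was highest at 548 ± 29.2 CPM per kb (SD, n = 3), followed by Gimap6 at 251 ± 23.6 and Gimap3 at 228 ± 6.48. The ranges of Gimap6 and Gimap3 met at 234 CPM per kb, so these neighbours in the order were not clearly apart. Gimap9 at 145 ± 10.5, Gimap8 at 126 ± 6.34 and Gimap1 at 91.4 ± 9.54 CPM per kb followed, without overlap between neighbours. Gimap7 at 48.9 ± 1.79 and Gimap5 at 46.7 ± 4.79 CPM per kb were lowest and overlapped. In Hhex KO, Gimap4 was again highest at 653 ± 41.6 CPM per kb (SD, n = 4). Gimap3 (250 to 349) and Gimap6 (220 to 281 CPM per kb) overlapped there, as did Gimap8, Gimap9 and Gimap1, while Gimap7 (60.6 to 83.9) lay above Gimap5 (37.8 to 50.1 CPM per kb). The order depends on the length used. Over the longest coding transcript, Gimap1 stood at 188 CPM per kb in Cre control, above Gimap9 (172) and Gimap8 (147), and Gimap5 (99.2) stood above Gimap7 (89.6).

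**Figure D1:**
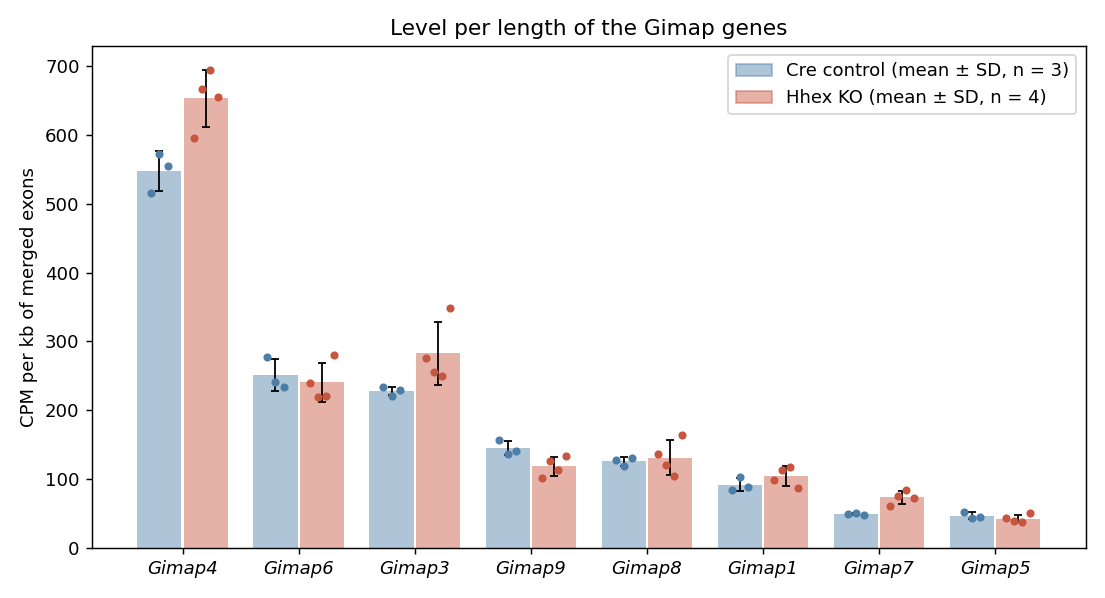
Level of each Gimap gene in CPM per kb of merged exons, ordered by the Cre control mean; bars are means, error bars SD and points single libraries (Cre control n = 3, Hhex KO n = 4). Gimap4 is highest in both groups, at 548 and 653 CPM per kb, and Gimap5 lowest, at 46.7 and 42.3.

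Between the genotypes, 1 of the 8 genes rose in Hhex KO, 0 fell and 7 were not called (edgeR's quasi-likelihood test, Benjamini-Hochberg adjusted p below 0.05 over all tested genes). The same rule called 4.56% of all tested genes, 2.68% as higher and 1.87% as lower, and a count of 1 in 8 is too small to set against that share. DESeq2 and limma-voom also gave 1 member higher and 0 lower. At an unadjusted p below 0.05, edgeR gave 1 higher and 1 lower. The median log2 fold change (Hhex KO over Cre control) was 0.12 over the members, 5 of them above 0 and 3 below, and 0.02 over all tested genes. In 3 members every Hhex KO library was above every Cre control library, against 9.37% of all tested genes, and in 1 member every Hhex KO library was below, against 9.98%. Fold changes are given as log2 values ± standard error (SE), from 4 Hhex KO and 3 Cre control libraries.

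**Figure D2:**
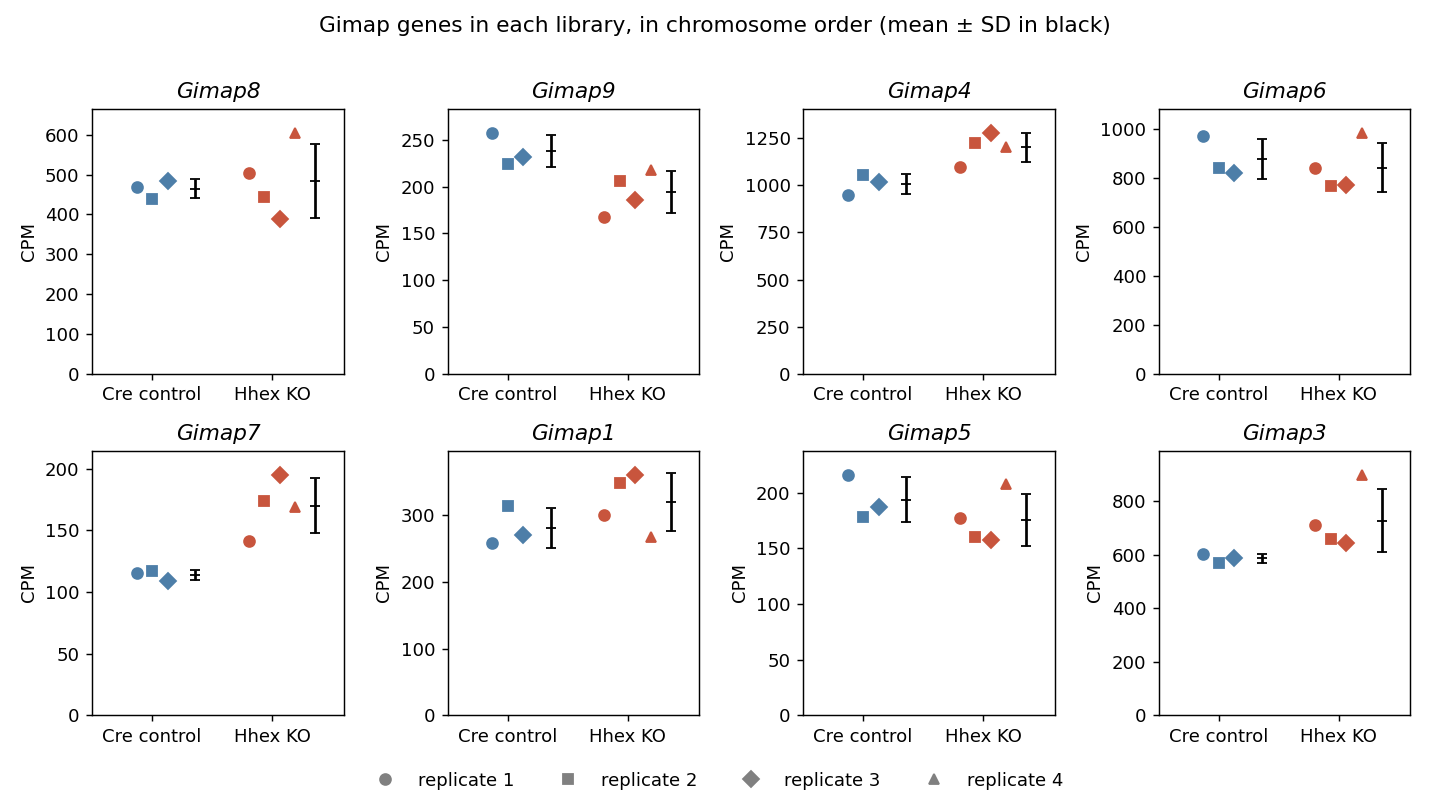
CPM of the 8 Gimap genes in each of 7 libraries, 1 panel a gene in chromosome order, each with its own axis from 0; symbols give the replicate number and black marks the mean ± SD. Gimap7, Gimap4 and Gimap3 lie higher in all 4 Hhex KO libraries than in the controls, and Gimap9 lies lower.

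Gimap7 (ENSMUSG00000043931.10, chr6:48718621-48724636, plus strand) was the member that rose. Its human counterpart stimulates the GTPase activity of another family member. It was at 115, 117 and 109 CPM in the controls (replicates 1 to 3) and at 141, 174, 195 and 169 CPM in the Hhex KO libraries (replicates 1 to 4). The groups did not overlap, and replicate 1 was the Hhex KO library closest to the controls. The log2 fold change was 0.58 ± 0.13 (adjusted p = 0.0414 with edgeR), or 1.49-fold with a 95% confidence interval of 1.22-fold to 1.83-fold. The call was lost without any 1 of the control libraries (adjusted p = 0.162, 0.144 and 0.171 without replicates 1, 2 and 3), without Hhex KO replicate 2 (0.0859) or 3 (0.0959), and without Hhex KO replicates 1 and 2 together (0.0719). The log2 fold change stayed between 0.51 and 0.68 over the 16 alternatives. Among the T cell genes, Trbc2 also rose (99.4 to 108 CPM in the controls, against 137 to 175 CPM in the Hhex KO libraries), and like Gimap7 it was highest in Hhex KO replicate 3, whereas Cd3e was highest in replicate 2. The part of T cells in the Gimap7 value was not tested.

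Gimap4 (ENSMUSG00000054435.16, chr6:48684549-48692060, plus strand), linked in rodents to the pace of T cell death, was the most abundant member. It was at 948, 1053 and 1019 CPM in the controls (replicates 1 to 3) and at 1095, 1226, 1276 and 1204 CPM in the Hhex KO libraries (replicates 1 to 4). The groups did not overlap, with Hhex KO replicate 1 again closest to the controls. The log2 fold change of 0.25 ± 0.12 did not pass the test (adjusted p = 0.326), and its 95% confidence interval ran from 0.981-fold to 1.45-fold.

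Gimap1 (ENSMUSG00000090019.5, chr6:48739054-48743795, plus strand) encodes a membrane-anchored protein that mature B and T cells need. It was at 258, 314 and 271 CPM in the controls (replicates 1 to 3) and at 301, 349, 361 and 267 CPM in the Hhex KO libraries (replicates 1 to 4). The groups overlapped, and Hhex KO replicate 4 lay inside the control range. The log2 fold change was 0.18 ± 0.14 (adjusted p = 0.576). Its antisense partner Gimap1os was at 70.7 to 88.4 CPM in the controls, against 72.5 to 107 CPM in the Hhex KO libraries, and its log2 fold change was 0.27 ± 0.16 (adjusted p = 0.406). In Hhex KO replicate 4 Gimap1os stood at 101 CPM, near the top of its range, whereas Gimap1 was at its lowest for Hhex KO.

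Gimap5 and Gimap3, the pair that shares coding sequence, had fold changes of opposite sign, and neither passed the test. Gimap5 (ENSMUSG00000043505.8, chr6:48746197-48754210, plus strand) encodes a lysosomal membrane protein, and mice without it lack NK cells in the periphery and lose T cells. It was at 216, 178 and 187 CPM in the controls (replicates 1 to 3) and at 177, 160, 157 and 208 CPM in the Hhex KO libraries (replicates 1 to 4). Hhex KO replicates 1, 2 and 3 lay below the controls and replicate 4 lay among them. For Gimap5 the log2 fold change was -0.14 ± 0.14 (adjusted p = 0.667), with a 95% confidence interval of 0.73-fold to 1.12-fold. It was -0.06 when Cre control replicate 1 was left out and -0.24 when Hhex KO replicate 4 was. Gimap3 (ENSMUSG00000039264.9, chr6:48764464-48770851, minus strand) encodes its close paralog, which acts with it in T cell survival. It was at 602, 569 and 590 CPM in the controls (replicates 1 to 3) and at 711, 658, 644 and 900 CPM in the Hhex KO libraries (replicates 1 to 4). All Hhex KO libraries were above the controls, replicate 4 furthest. Gimap3 had 0.31 ± 0.15 on the log2 scale (adjusted p = 0.314), and 0.19 without replicate 4 (adjusted p = 0.362).

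Gimap6 (ENSMUSG00000047867.11, chr6:48701582-48708225, minus strand) encodes a protein that binds the autophagy protein GABARAPL2. It was at 971, 840 and 819 CPM in the controls (replicates 1 to 3) and at 838, 768, 772 and 982 CPM in the Hhex KO libraries (replicates 1 to 4). The highest and the lowest of the 7 libraries were both Hhex KO. For Gimap6 the fold change on the log2 scale was -0.06 ± 0.14 (adjusted p = 0.89), with a 95% confidence interval of 0.767-fold to 1.2-fold. It turned to 0.01 without Cre control replicate 1.

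Gimap8 (ENSMUSG00000064262.7, chr6:48647234-48660875, plus strand) encodes the member with several GTP-binding domains. It was at 470, 439 and 485 CPM in the controls (replicates 1 to 3) and at 505, 443, 388 and 604 CPM in the Hhex KO libraries (replicates 1 to 4). The control range lay inside the Hhex KO range. On the log2 scale the difference of Gimap8 was 0.06 ± 0.16 (adjusted p = 0.904), and it turned to -0.06 without Hhex KO replicate 4.

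Gimap9 (ENSMUSG00000051124.6, chr6:48676129-48679114, plus strand) was the one member with every Hhex KO library below every control. It was at 257, 224 and 232 CPM in the controls (replicates 1 to 3) and at 167, 206, 186 and 218 CPM in the Hhex KO libraries (replicates 1 to 4). The gap was narrow, from 218 CPM in Hhex KO to 224 CPM in Cre control. The log2 fold change of -0.29 ± 0.13 had an unadjusted p of 0.047 with edgeR, and it missed the threshold after adjustment (adjusted p = 0.263).

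**Figure D3:**
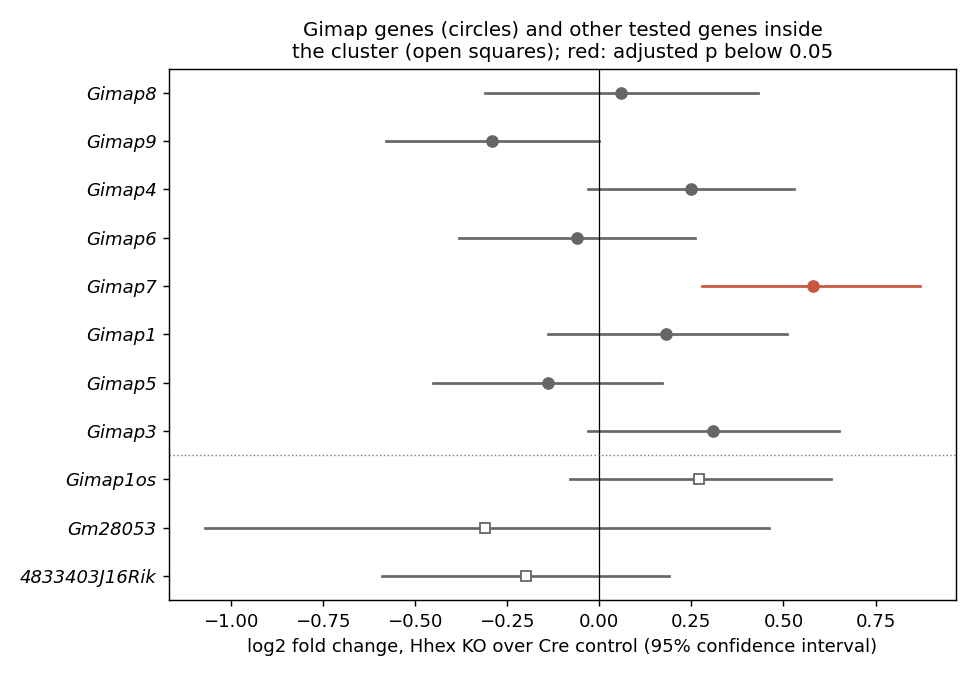
Log2 fold change, Hhex KO over Cre control, with its 95% confidence interval, for the 8 Gimap genes (circles) and 3 other tested genes inside the cluster (open squares); red marks an adjusted p below 0.05. The interval of Gimap7 runs from 0.28 to 0.87, while that of Gimap9 ends just below 0 and those of the other members include 0.

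Each gene's part of the family total was also taken in every library. Gimap9 made up the following part of the summed Gimap CPM: 5.99% to 6.7% in Cre control and 4.24% to 5.16% in Hhex KO. The share of Gimap5 was 4.77% to 5.63% in Cre control and 3.95% to 4.57% in Hhex KO, and that of Gimap6 was 22.1% to 25.3% in Cre control and 19.3% to 21.6% in Hhex KO. These 3 shares were lower in every Hhex KO library than in every control. Gimap7 made up 2.94% to 3.13% in Cre control and 3.57% to 4.9% in Hhex KO, and Gimap3 15.2% to 15.9% in Cre control and 16.2% to 19.8% in Hhex KO. The shares of Gimap1, Gimap4 and Gimap8 overlapped. In CPM, Gimap5 and Gimap6 overlapped between the groups. CPM levels, a different measure from shares, did not overlap in 19.3% of all tested genes. No such figure was taken for shares of a total. Shares of one total are tied to each other, and no test was made on them.

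Among the Hhex KO libraries the members were not all high in the same library. Gimap4, Gimap7 and Gimap1 were highest in replicate 3, whereas Gimap8, Gimap9, Gimap6, Gimap5 and Gimap3 were highest in replicate 4. In replicate 4 the log2 level over the Cre control mean was 0.62 for Gimap3, 0.38 for Gimap8, 0.16 for Gimap6 and 0.10 for Gimap5, while Gimap9 was at -0.13. In replicate 3 it was 0.13, -0.26, -0.18 and -0.30 for the first 4 genes and -0.35 for Gimap9. For Gimap7, Gimap4 and Gimap1 it was 0.78, 0.34 and 0.36 in replicate 3, and 0.57, 0.26 and -0.07 in replicate 4. Gimap7 and Gimap4 were thus above the control mean in both libraries. The sets are not blocks on the chromosome, since Gimap4 lies between Gimap9 and Gimap6. In replicate 4, Hhex (64.8 CPM) was also at its highest for Hhex KO, and Bcl2l11 (230 CPM) and Cd3e (10.6 CPM) at their lowest. The T cell genes did not all go this way. Cd3d (30.6 CPM) and Cd3g (20.4 CPM) were at their lowest there too, but Trbc1 was at its highest. Trbc1 stood at 237 CPM in replicate 4, against 148, 111 and 113 CPM in replicates 1 to 3. The summed T cell level was lowest in replicate 1 (1280 CPM), with 1350 CPM in replicate 4. Hhex KO replicate 1 mostly went with replicate 4. Gimap3, Gimap5, Gimap6 and Gimap8 were higher in both than in replicates 2 and 3, and Gimap7, Gimap4 and Gimap1 were lower. Gimap9 did not split this way (167 and 218 CPM in replicates 1 and 4, against 206 and 186 CPM in replicates 2 and 3). The TMM scaling factors were 1.041 and 1.068 in replicates 1 and 4, against 0.949 and 0.958 in replicates 2 and 3. The part of the separate sample number, of the scaling or of T cells in this pattern was not tested.

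**Figure D4:**
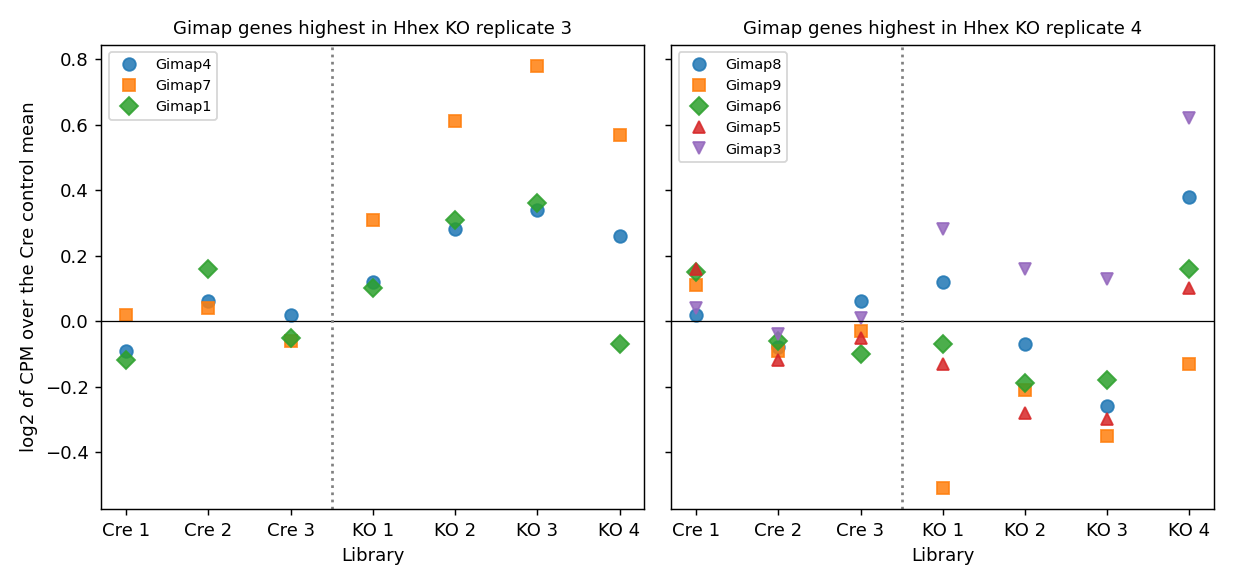
Log2 of each library's CPM over the Cre control mean of the same gene, for genes highest in Hhex KO replicate 3 (left) and in Hhex KO replicate 4 (right); the dotted line parts 3 Cre control from 4 Hhex KO libraries. In Hhex KO replicate 4 the left-hand genes lie at -0.07 (Gimap1) to 0.57 (Gimap7) and the right-hand genes at -0.13 (Gimap9) to 0.62 (Gimap3).

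Other genes inside the cluster did not pass the test with edgeR. Of 5 such annotated genes 3 were tested, namely Gimap1os, Gm28053 and the long non-coding RNA gene 4833403J16Rik. Gm28053 was at 2.92 to 3.08 CPM in the controls, against 1.83 to 4.16 CPM in the Hhex KO libraries, and its log2 fold change was -0.31 ± 0.34 (adjusted p = 0.725). Hhex KO replicate 4 was the highest library, and without it the value was -0.67 (adjusted p = 0.141). It was -0.2 and -0.19 without Hhex KO replicates 1 and 3, and -0.03 without replicates 1 and 2 together. 4833403J16Rik, between Gimap5 and Gimap3, was at 19.8 to 20.2 CPM in the controls, against 13.3 to 21 CPM in the Hhex KO libraries, and its log2 fold change was -0.20 ± 0.17 (adjusted p = 0.62). It was -0.09 without Hhex KO replicate 3, and limma-voom with sample quality weights called it lower (-0.4, adjusted p = 0.0459).

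Outside the cluster, a pair of neighbours had larger fold changes than the Gimap genes. Within 500 kb of either end lay 46 other genes, of which 13 were tested, 2 rose, 0 fell and 11 were not called with edgeR, beside 2.68% called higher and 1.87% called lower over all tested genes. DESeq2 gave 2 higher and 0 lower, and edgeR gave 1 lower at an unadjusted p below 0.05. The genes that rose were Tmem176b (chr6:48833818-48841496) and Tmem176a (chr6:48840919-48847071), which encode related membrane proteins and lie 63 and 70.1 kb from the cluster's end. Tmem176a was at 4.57, 2.99 and 3.84 CPM in the controls (replicates 1 to 3) and at 30.6, 27, 39.8 and 23.4 CPM in the Hhex KO libraries (replicates 1 to 4). Its log2 fold change was 2.98 ± 0.24 (adjusted p = 0.000395 with edgeR). Tmem176b was at 5.67 to 9.59 CPM in the controls, against 29.5 to 53.1 CPM in the Hhex KO libraries, and its log2 fold change was 2.42 ± 0.26 (adjusted p = 0.00168 with edgeR). Both pairs of groups were far apart, and both calls held in all 16 alternatives. The spans of the 2 genes overlap on opposite strands, so reads there are uncertain. Both are also on the list of 8 genes of type 1 innate lymphoid cells (ILC1). All 8, these 2 included, were higher with edgeR, beside 2.68% called higher over all tested genes. The list was chosen with earlier results of these data known, so this count is a description only. That list summed to 87.6 to 112 CPM in the controls, against 477 to 644 CPM in the Hhex KO libraries, and its part in the Gimap values was not tested.

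The other tested neighbours did not pass the test. On the Gimap8 side, from near to far, the log2 fold change was 0.53 ± 0.31 (adjusted p = 0.42) for AI854703, -0.38 ± 0.15 (adjusted p = 0.228) for Zfp775, 0.17 ± 0.16 (adjusted p = 0.638) for Repin1 and -0.22 ± 0.18 (adjusted p = 0.603) for Lrrc61. Further out it was -0.43 ± 0.27 (adjusted p = 0.443) for Zfp862-ps, 0.76 ± 0.48 (adjusted p = 0.453) for Sspo, -0.34 ± 0.16 (adjusted p = 0.312) for Zfp467 and 0.05 ± 0.51 (adjusted p = 0.975) for Krba1. Beyond the Tmem176 genes it was 0.64 ± 0.32 (adjusted p = 0.339) for Gpnmb, 0.04 ± 0.23 (adjusted p = 0.96) for Malsu1 and 0.39 ± 0.18 (adjusted p = 0.295) for Tra2a.

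**Figure D5:**
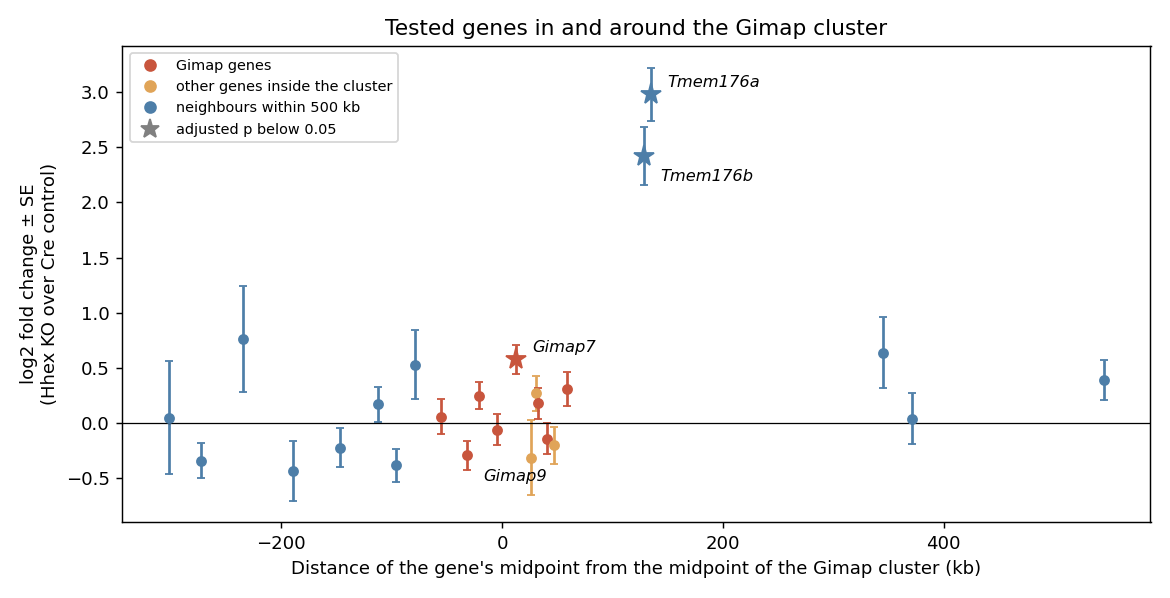
Log2 fold change ± SE of each tested gene in the Gimap cluster and within 500 kb of it, against the distance of its midpoint from the midpoint of the cluster in kb; stars mark an adjusted p below 0.05. Tmem176a (2.98) and Tmem176b (2.42) stand above the other genes, and Gimap7 (0.58) is the remaining star.

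Genes of proteins linked to GIMAP proteins were mostly not called. Of 18 tested partners 1 rose, 0 fell and 17 were not called with edgeR, beside 4.56% called over all tested genes. At an unadjusted p below 0.05, 1 was higher and 2 were lower, and DESeq2 called 1 higher and 1 lower. Their median log2 fold change was -0.14, against 0.02 over all tested genes. The partner that rose was Bcl2l11, at 144 to 168 CPM in the controls, against 230 to 327 CPM in the Hhex KO libraries, and its log2 fold change was 0.92 ± 0.15 (adjusted p = 0.0123 with edgeR). That call was lost without any 1 control library (adjusted p = 0.0793, 0.0635 and 0.0532) and without Hhex KO replicates 1 and 2 together (0.0868). A few uncalled partners are given as well, chosen after their values were seen. Gabarapl1, an autophagy gene, was at 35.9 to 43.5 CPM in the controls, against 25.2 to 32.1 CPM in the Hhex KO libraries, and its log2 fold change was -0.45 ± 0.13 (adjusted p = 0.0911). Gabarapl2, whose product binds GIMAP6, had 0.12 ± 0.14 (adjusted p = 0.733). The pro-survival genes Bcl2 and Bcl2l1 had 0.22 ± 0.14 (adjusted p = 0.454) and -0.24 ± 0.16 (adjusted p = 0.494).

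Genes of lymphocyte quiescence and the naive state, in which GIMAP genes are typically expressed, went both ways. Of 20 tested, 3 rose, 4 fell and 13 were not called with edgeR, beside 2.68% called higher and 1.87% called lower over all tested genes. Their median log2 fold change was -0.11, against 0.02 over all tested genes. Il7r, a chain of the interleukin-7 receptor that is also on the ILC1 list, rose (1.72 ± 0.15, adjusted p = 0.000513), as did S1pr1, a receptor for exit from tissues (1.02 ± 0.19, adjusted p = 0.0198), and the transcription factor gene Lef1 (0.83 ± 0.13, adjusted p = 0.0123). The antiproliferative genes Btg2 (-1.38 ± 0.24, adjusted p = 0.0148) and Btg1 (-0.98 ± 0.21, adjusted p = 0.0334) fell. So did Klf2, a transcription factor gene (-0.77 ± 0.16, adjusted p = 0.0312). The glucocorticoid-induced gene Tsc22d3 fell as well (-1.04 ± 0.23, adjusted p = 0.0361, by edgeR as for the others). The 7 calls became 1, 3 and 2 without Cre control replicates 1, 2 and 3, 4 without Hhex KO replicate 3, and 3 without Hhex KO replicates 1 and 2 together.

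Other GTPases of immune cells, mainly the interferon-inducible GBP and IRG families, were mostly not called. Of 16 tested, 2 rose, 0 fell and 14 were not called with edgeR, beside 4.56% called and 2.68% called higher over all tested genes. Their median log2 fold change was 0.20, against 0.02 over all tested genes. At an unadjusted p below 0.05 there were 4 higher and 1 lower, and DESeq2 called 2 higher and 1 lower. Both genes that rose were scarce. Iigp1 was at 0.899 to 1.13 CPM in the controls, against 2.04 to 4.54 CPM in the Hhex KO libraries, and its log2 fold change was 1.67 ± 0.34 (adjusted p = 0.0309 with edgeR). Tgtp1 was at 0.674 to 1.14 CPM in the controls, against 2.06 to 2.75 CPM in the Hhex KO libraries, with 1.35 ± 0.30 (adjusted p = 0.0417 with edgeR), and its value is uncertain because it is nearly identical to Tgtp2. The number called was 0 without any 1 Cre control library, without Hhex KO replicate 1 or 3, and without Hhex KO replicates 1 and 2 together, and it was 1 without Hhex KO replicate 2.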

How the data were processed

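RNA from sorted splenic NK cells was sequenced as 75 bp single-end reads from strand-keeping libraries, per the labels' protocols. The authors deposited 1 table of read counts per gene for the 7 libraries. STAR, featureCounts and mm10 are named in the submitters' processing notes. No source used here gives the annotation release, the strand setting or the handling of multi-mapping reads. Ensembl IDs were matched without their version to GENCODE M21 (99.8% matched). Genes were filtered with edgeR's filterByExpr (minimum count 10, minimum total 15), scaled with TMM and tested with edgeR's quasi-likelihood test (edgeR 4.0.16, R 4.3.3), with Benjamini-Hochberg adjustment over 12161 genes. DESeq2 1.42.0, limma 3.58.1 (voom, with and without sample quality weights), other scalings, no filter, a stricter filter (10 CPM in 3 libraries), a replicate block and leaving out libraries were alternatives. The scripts were tested on simulated data. The members and the gene lists were chosen with earlier results of these data known. All members, Hhex, Bcl2l11, genes overlapping members, tested neighbours, up to 6 called genes of each list and the 5 genes most like the summed level were to be named, of which 1 is not reported here.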

Additional observations from a re-analysis of the deposited data

Results flagged for a closer look

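Of 14 values examined over the 4 Hhex KO libraries, 2 had a library that stood far from the others, and chance alone gives this in about 1 of 20 groups. The summed Gimap level was 4552 CPM in Hhex KO replicate 4, against 3934 to 3984 CPM in replicates 1 to 3, a gap of 0.92 of the whole range, above Dixon's critical value for 4 samples. Gm28053, the gene model that overlaps Gimap7, Gimap1 and Gimap5, was at 4.16 CPM in the same library, against 1.83 to 2.00 CPM in the others, a gap of 0.923 of the range.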

How the results depend on the processing

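Over 16 alternatives, the log2 fold changes of Gimap1, Gimap3, Gimap4, Gimap5, Gimap7 and Gimap9 kept their sign. With 1 library left out, Gimap6 lay between -0.15 and 0.01 and Gimap8 between -0.06 and 0.16. Gimap6 turned to 0.01 without Cre control replicate 1 and to 0 without Hhex KO replicates 1 and 2 together, an alternative chosen after seeing the data. Gimap8 turned to -0.1 with sample quality weights in limma-voom, to -0.07 with the replicate block and to -0.06 without Hhex KO replicate 4. The ratio of the summed Gimap level, 1.09 as reported, was 1.09 to 1.11 under the alternative scalings, a shift smaller than the spread among the Hhex KO libraries. That spread includes replicate 4, which stood apart. As a share of all counts the groups overlapped, with 0.381% in Cre control replicate 1 and 0.378% in Hhex KO replicate 2. Genes called higher and lower numbered 326 and 228 in the reported analysis. Higher calls were 186 with the stricter filter and 499 with the replicate block, and higher and lower calls were 617 and 430 with DESeq2, 1541 and 1323 with sample quality weights, and 103 and 111 without Hhex KO replicates 1 and 2 together. Leaving out 1 library gave 91 to 527 higher and 50 to 291 lower. The share of higher among all calls was 58.8% in the reported analysis and 48.1% without Hhex KO replicates 1 and 2 together. Gimap members called higher were 1, 0 with the replicate block, 0 without Hhex KO replicates 1 and 2 together, and 0 to 1 with 1 library left out. GIMAP partners called were 1, 2 with DESeq2, 5 with sample quality weights, 0 without Hhex KO replicates 1 and 2 together, and 0 to 1 with 1 library left out. Quiescence genes called were 7, 3 without Hhex KO replicates 1 and 2 together, and 1 to 7 with 1 library left out. Other immune GTPases called were 2, 1 with no filter, 0 with the stricter filter, 4 with sample quality weights, 0 without Hhex KO replicates 1 and 2 together, and 0 to 2 with 1 library left out. Fewer samples enter the fits that leave out libraries. The cause of the other differences was not tested. Libraries that share a number had deviations with r = 0.326, 0.479 and -0.031 for numbers 1, 2 and 3. Between libraries with different numbers, r ran from -0.489 to 0.24. The values for numbers 1 and 2 lay above that range and that for number 3 inside it, so the numbers were not taken to pair the libraries. With the replicate block, on libraries 1 to 3 of each group, the value of Gimap7 was 0.56 on the log2 scale (adjusted p = 0.059 with edgeR). A comparison of the members' proteins was not run.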

Other observations

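Genes whose variation among libraries of a group was closely like that of the summed Gimap level included Zscan21, Trim12a, Iqcc and Samd3. With each group's mean removed, Pearson's r of their log2 CPM over the 7 libraries was 0.995, 0.991, 0.989 and 0.984, in that order, among 9769 genes compared. These genes were picked for the highest r among all those compared, so high values arise from the choice itself. The summed level stood apart in Hhex KO replicate 4 (4552 CPM), and how far r rests on that library was not tested. The points share their libraries and depths, and the values are a description only.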
